A study of Rattus norvegicus with 16 samples.

Results

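The comparison is between hypothalamus of rats given fructose and hypothalamus of control rats, across genes and gene functions. It uses 7 RNA sequencing libraries, 4 control and 3 fructose, of the 15 libraries that the deposited tables of the series hold. They were chosen by the tissue and treatment in the labels. All come from male Sprague Dawley rats, the controls with no treatment and the others fed fructose over 6 weeks. The labels list 4 fructose samples of hypothalamus, and fructose replicate 4 was not analysed here. Dose, the form in which fructose was fed, age and the way the tissue was taken are not stated in the labels. Nor do they tell whether samples are separate rats or pools. The p-values therefore cover the spread between these samples, which may be technical, and no more.

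The hypothalamus is the brain region that matches food intake and energy use to the state of the body, through neurons that sense glucose, insulin and leptin and through peptides released within the brain or to the pituitary. It borders the third ventricle, which is lined by ciliated ependymal cells and by tanycytes, and its lower face is covered by meninges. Fructose enters cells through the transporter Slc2a5 and is broken down apart from the main control step of glycolysis.

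Expression is given as FPKM, a count of fragments scaled to transcript length and library size. The table has 17762 loci, of which 11498 with a mean of at least 1 FPKM were tested on log2(FPKM + 1). A fold change on this scale understates the change of genes with low values. The FPKM of a library added up to 435105 to 492778, and the number of reads behind them is unknown. Peptides that define the tissue were abundant in all 7 libraries, with Avp at 1159 to 3765 FPKM, Oxt at 789 to 2410 FPKM, Pmch at 559 to 2001 FPKM and Hcrt at 446 to 1053 FPKM. Summed markers of pituitary, which hangs below the hypothalamus, ranged from 55.8 to 867.5 FPKM without following the groups. Both replicate 1 libraries stood apart: across loci, log2 values of this pair correlated at r = 0.98, but at 0.88 to 0.909 with the other 5, whose own correlations were 0.956 to 0.979. The median or the counts of each gene list are therefore also given without these 2 libraries.

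Slc39a12 encodes ZIP12, an importer that brings zinc into the cytosol and that in brain is found mainly in astrocytes. It rose with fructose and was the 1 locus that passed the test (0.0087% of those tested). Its FPKM was 1.45, 1.09, 0.964 and 1.01 in control replicates 1 to 4, and 8.28, 9.63 and 9.05 in fructose replicates 1 to 3. The lowest fructose library lay far above the highest control library, and the replicate 1 libraries lay with the rest of their groups. The means were 1.13 ± 0.221 FPKM (SD, n = 4) and 8.99 ± 0.675 FPKM (n = 3), a 7.94-fold ratio. On the log2(FPKM + 1) scale the difference was 2.23 ± 0.13 (SE), with a 95% confidence interval of 1.92 to 2.54 (limma adjusted p = 0.00382). It was 2.35 without both replicate 1 libraries (limma adjusted p = 0.0111). Without fructose replicate 2 or 3 the size stayed at 2.19 and 2.23, and the limma adjusted p was 0.0589 and 0.0587.

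The other zinc genes showed no such separation. Of 19 tested transporters and metallothioneins, 12 had a positive log2 fold change and 7 a negative, the median was 0.01, and Slc39a12 was the 1 member with an unadjusted p under 0.05. Of all loci 3.14% had such a p. Without both replicate 1 libraries 9 were positive and the median was -0.01. Slc39a12 was then higher and Mt2A lower at that p (4.74% and 4.63% of all loci). Slc30a3, which loads zinc into synaptic vesicles, had means of 4.77 ± 2.99 FPKM (control) and 2.20 ± 0.473 FPKM (fructose) (log2 fold change -0.73 ± 0.38, SE). The control value rests on replicate 1 at 8.96 FPKM, and the groups overlapped. Slc39a6, another importer, was at 26.5 ± 2.31 and 29.7 ± 5.39 FPKM. The metallothionein Mt2A, which binds zinc and copper, was at 5.99 ± 1.66 and 4.78 ± 1.91 FPKM, while Mt1a ranged from 0.136 to 13.2 FPKM within the control group alone and is 1 of 2 loci with this symbol.

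No other locus passed, in either direction: the limma adjusted p of all the rest was 0.9998. At an unadjusted p under 0.05 there were 361 loci, 3.14% of those tested and fewer than the 575 that a rate of 5% would give. Of these 361, 117 (1.02% of the tested loci) were higher and 244 (2.12%) lower in fructose samples, so that 32.4% were higher. A fit with replicate as a block gave 759 loci (6.6%), 2.28% of the tested loci being higher and 4.32% lower, so that 34.5% of the 759 were higher. The share of higher loci was 44.5% of 886 (7.71%) with a term for replicate 1 and 48.6% of 2099 with library weights. With both replicate 1 libraries left out, it was 50.6% of 1077 loci (9.37%), with 4.74% of the tested loci higher and 4.63% lower. Leaving out 1 library at a time moved the share both ways: it was 18.3% without control replicate 2 and 19.1% without fructose replicate 3, and 47.4% without control replicate 1 and 47.0% without fructose replicate 1. Over all tested loci, 51.5% had a positive log2 fold change and the median was 0.01. Values of the groups did not overlap for 383 loci (3.33%), 201 of them higher (1.75%) and 182 lower (1.58%). The genes described from here on did not pass the adjusted test, and they are given as measured values.

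**Figure D1:**
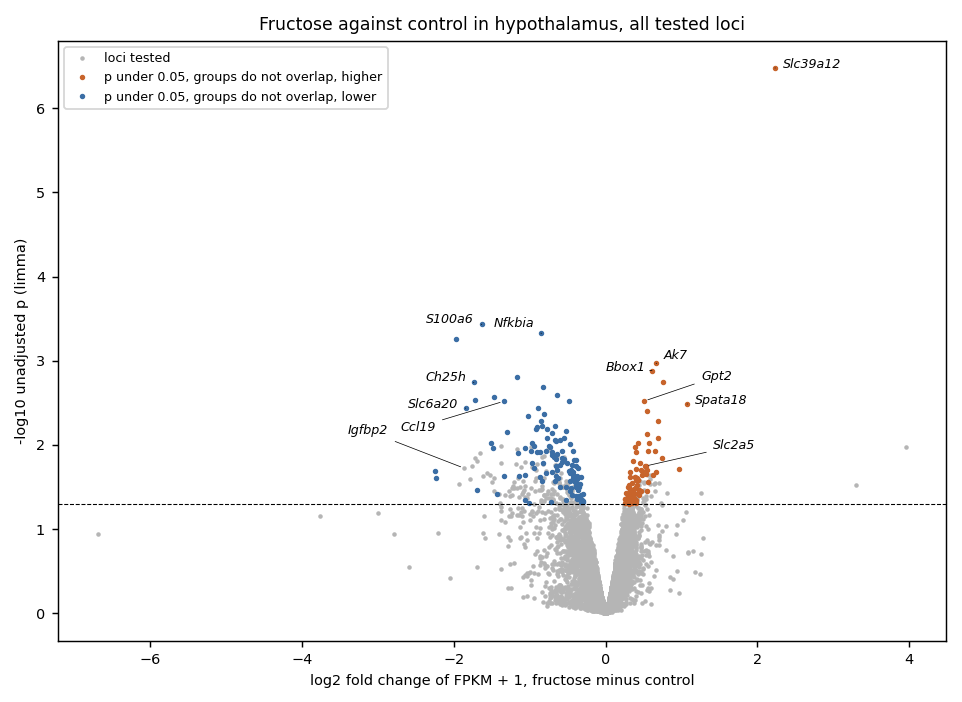
Each point is a tested locus, with the log2 fold change of FPKM + 1 (fructose minus control) on the horizontal axis and -log10 of the unadjusted limma p on the vertical axis; the dashed line marks the unadjusted threshold of 0.05. Slc39a12 lies apart from all other loci at a log2 fold change of 2.23, and the coloured loci are those whose groups do not overlap and that lie above the line.

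Of 50 tested genes of motile cilia, the beating structures that move fluid along the ventricle wall, 46 had a positive log2 fold change and 16 an unadjusted p under 0.05, all of them higher. Of all loci 1.02% were higher at that p. Values did not overlap between groups for 15 of the genes, all higher (1.75% of all loci in this direction). The median log2 fold change was 0.31, beside 0.01 for all loci, and 0.23 without both replicate 1 libraries, where 13 were higher and 1 lower at that p (4.74% and 4.63% of all loci). The list names 109 genes, of which 60 are in the table.

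Ak7, an adenylate kinase of the ciliary axoneme, was at 3.20, 3.66, 3.97 and 4.32 FPKM in the controls and at 6.88, 6.22 and 6.61 FPKM in the fructose libraries. All fructose values exceeded all control values, with a log2 fold change of 0.67 ± 0.13 (SE). Ccdc153, a coiled-coil protein used as an ependymal marker, was at 6.51, 9.78, 8.63 and 8.81 FPKM and then at 16.7, 13.5 and 14.1 FPKM. The widest gap was between the replicate 1 libraries, and the log2 fold change was 0.75, or 0.56 without them. Dnali1, an axonemal dynein light intermediate chain, was at 4.23 ± 0.671 and 7.44 ± 1.64 FPKM. Spag6, a protein of the central microtubule pair, had means of 5.10 ± 0.996 and 8.03 ± 1.16 FPKM, and Wdr63, a dynein intermediate chain, 3.75 ± 0.243 and 5.13 ± 0.398 FPKM. Spata18, Stoml3 and Lrrc46 had log2 fold changes of 1.07, 0.69 and 0.56 with no overlap of the groups. Wdr63 and Lrrc46 are not members of the list counted above.

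Markers of ependymal cells were less uniform, and their list shares Foxj1, Ccdc153, Tmem212, Rsph1, Dynlrb2, Enkur and Ak7 with the cilia list. Of 10 tested, 7 had a positive log2 fold change (median 0.37, or 0.26 without both replicate 1 libraries). At an unadjusted p under 0.05, 3 were higher and 1 lower (1.02% and 2.12% of all loci). Without those libraries these were 4 and 1 (4.74% and 4.63%), and with the block 7 in either direction (6.6%). The higher ones with all libraries were Ak7, Ccdc153 and Tmem212, which are all in the cilia list too. Tmem212, a membrane protein, was at 9.69 ± 2.64 and 15.5 ± 1.09 FPKM. Rarres2, which encodes the chemoattractant chemerin and is not in the cilia list, was the lower one at 44.1 ± 15.9 and 20.3 ± 10.1 FPKM. Foxj1, the transcription factor that switches on motile cilia genes, was at 9.91, 16.9, 14.8 and 26.0 FPKM in the controls and 14.0, 29.6 and 32.6 FPKM in the fructose libraries. These groups overlapped, and its log2 fold change was 0.55 ± 0.37 (SE). Fructose lay above control within each same-numbered pair, as for 1636 of the 11498 tested loci. The log2 fold change of Foxj1 was 0.70 without both replicate 1 libraries. There the groups did not overlap, as for 1705 loci in this direction. It was 0.63 with a term for replicate 1 and 0.78 with the block. In bulk tissue a larger share of ciliated cells and more RNA per cell cannot be told apart, here and for every cell type named further on.

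Genes of motile cilia are commonly bound by RFX factors at X-box motifs, and the promoter of Mlf1, a gene of this list that was chosen after its values were seen, holds such a half-site. Mlf1 was at 2.21, 2.72, 3.92 and 2.46 FPKM in control and 6.89, 4.95 and 3.38 FPKM in fructose libraries. Control replicate 3 lay above fructose replicate 3, so the groups overlapped (log2 fold change 0.65 ± 0.24, SE). The 250 bases before its start in RefSeq (GRCr8 chr2:153958341-153958590, plus strand) are shown 5′ to 3′ with the match to GTTGCCA in capitals, at bases 151 to 145 before the start:
Mlf1: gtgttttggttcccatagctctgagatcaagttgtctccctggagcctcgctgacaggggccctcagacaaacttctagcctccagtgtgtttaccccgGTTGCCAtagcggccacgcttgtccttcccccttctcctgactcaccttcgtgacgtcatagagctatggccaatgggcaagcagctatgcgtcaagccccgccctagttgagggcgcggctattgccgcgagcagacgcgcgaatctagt
Searched on both strands of such windows, these letters occur in 5 of the 32 tested cilia genes with a promoter in the RefSeq table (15.6%) and in 3.62% of all 27457 promoters. The 5 are Mlf1, Tekt1, Gas8, Capsl and Iqcg. Of the genes named above, Ak7, Spata18, Dnali1, Stoml3, Spag6 and Tmem212 are among the 32 and hold no match. Ccdc153, Foxj1, Wdr63 and Lrrc46 are not among the 32.

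**Figure D2:**
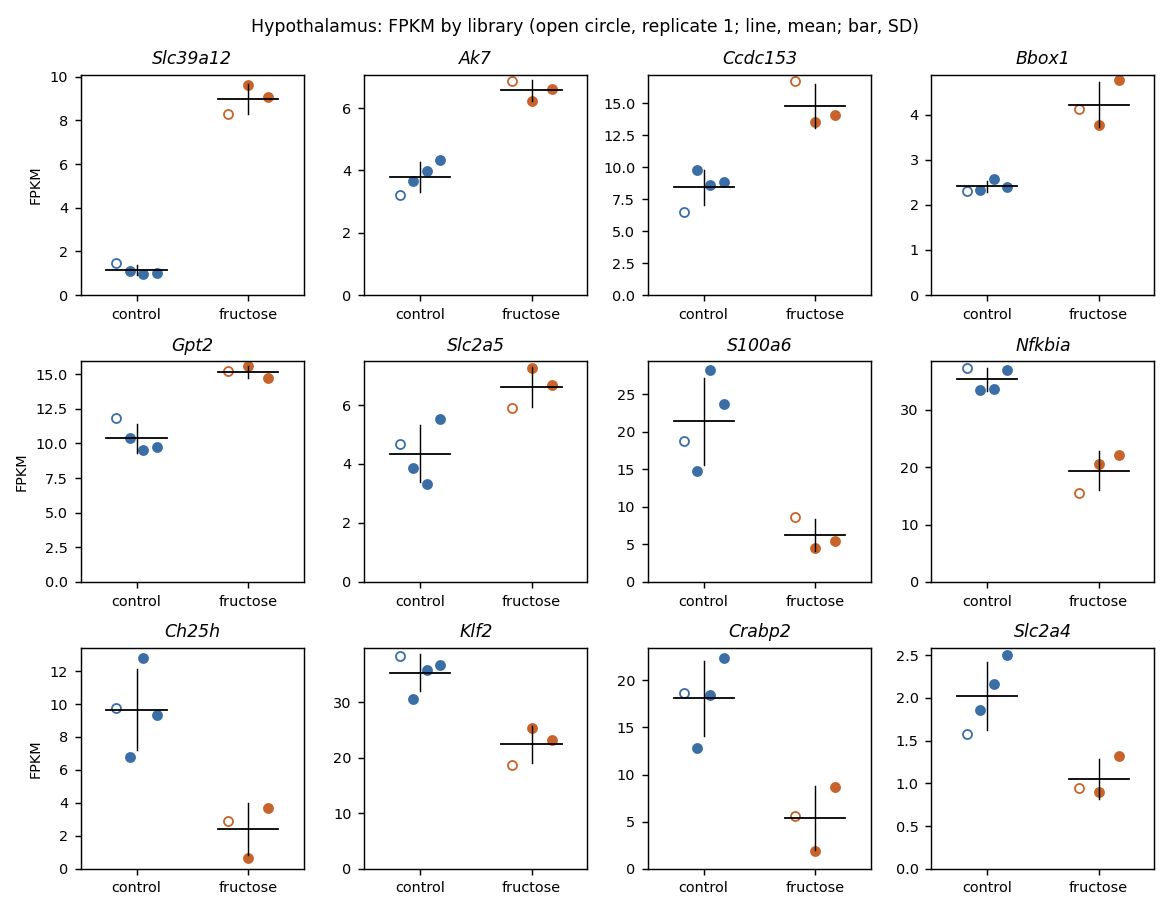
FPKM of 12 genes in each library, control in blue and fructose in orange; open circles are the replicate 1 libraries, horizontal lines the group means and vertical bars the SD. Values of the groups do not overlap in any panel; Slc39a12 has the widest separation, with 0.964 to 1.45 FPKM in control and 8.28 to 9.63 FPKM in fructose libraries.

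Among genes of sugar handling, the fructose transporter itself was higher and the insulin-regulated glucose transporter lower. Slc2a5 (GLUT5), which in brain is best known from microglia, was at 4.68, 3.87, 3.31 and 5.54 FPKM in the controls and at 5.89, 7.25 and 6.67 FPKM after fructose. The groups did not overlap, although control replicate 4 and fructose replicate 1 lay close together, and the log2 fold change was 0.52 ± 0.17 (SE). Slc2a4 (GLUT4) was at 1.57, 1.85, 2.16 and 2.495 FPKM and at 0.940, 0.897 and 1.31 FPKM, again without overlap, with a log2 fold change of -0.56 ± 0.16. Both are low in this tissue, and the sizes without the replicate 1 libraries were 0.62 and -0.59.

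Over the whole list of fructose and glucose use, 18 of 35 tested genes were positive and 17 negative, with a median of 0.01. At an unadjusted p under 0.05, 2 were higher and 3 lower (1.02% and 2.12% of all loci). Without both replicate 1 libraries these were 2 and 2 (4.74% and 4.63%), with a median of -0.0037. Pfkl, the liver-type phosphofructokinase of glycolysis, was at 48.5 ± 3.62 and 59.4 ± 1.93 FPKM with no overlap. Txnip, which is induced by glucose and restrains its uptake, was at 49.9 ± 9.50 and 31.7 ± 13.5 FPKM, with fructose replicate 3 at 46.9 FPKM inside the control range. Khk, the kinase that commits fructose to breakdown, was not analysed here.

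Genes of fatty acid synthesis leaned to higher values. Of 16 tested, 12 had a positive log2 fold change (median 0.18, the same without both replicate 1 libraries). At an unadjusted limma p under 0.05, 2 were higher and 0 lower (1.02% and 2.12% of all loci). Without those libraries these were 3 and 0 (4.74% and 4.63%). Fads2, the delta-6 desaturase of polyunsaturated fatty acids, was at 126.6 ± 9.91 and 177.7 ± 35.1 FPKM without overlap. Elovl2, which elongates the same acids, was at 17.1 ± 2.39 and 22.6 ± 3.51 FPKM. Gpam, which starts triglyceride synthesis, was at 12.3 ± 3.26 and 16.3 ± 3.87 FPKM, and Lpin1, a phosphatidate phosphatase, at 8.56 ± 0.742 and 9.86 ± 0.254 FPKM. The median depended on the libraries used, and without fructose replicate 2 it was 0.04. No member then had an unadjusted limma p under 0.05, which 146 of all 11498 tested loci had in that fit. Relative to the control mean, the list median was 0.16, 0.17 and 0.06 in fructose replicates 1 to 3.

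In carnitine synthesis and fatty acid oxidation Bbox1 was higher in every fructose library. Bbox1, the last enzyme of carnitine synthesis, was at 2.31, 2.34, 2.57 and 2.40 FPKM in control and 4.12, 3.78 and 4.76 FPKM in fructose libraries. The spread within the controls was small beside the gap between groups, and the log2 fold change was 0.61 ± 0.12, and 0.61 without the replicate 1 libraries. It was the 1 of 25 genes of this list at an unadjusted p under 0.05 with all libraries, a share near the 3.14% of all loci. Without replicate 1 it was again the 1 gene at that p (9.37% of all loci). The list had a median of 0.05, or 0.02 without those libraries. Cpt1a, which passes fatty acids to mitochondria, was at 11.8 ± 1.79 and 13.9 ± 1.22 FPKM, and the coactivator Ppargc1a at 3.92 ± 0.624 and 4.79 ± 0.349 FPKM.

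Of 28 genes of glutamate and amino acid use, 13 were positive and 15 negative. At an unadjusted p under 0.05, 1 was higher and 2 lower (1.02% and 2.12% of all loci). Without both replicate 1 libraries 16 were positive and the median was 0.05, with 6 higher and 3 lower at that p (4.74% and 4.63% of all loci). Gpt2, the mitochondrial alanine aminotransferase, was at 11.8, 10.4, 9.56 and 9.73 FPKM in control and at 15.3, 15.6 and 14.7 FPKM in fructose libraries, a log2 fold change of 0.51 ± 0.12 without overlap. Slc38a1, a glutamine transporter with 2 loci in the table, was at 36.3 ± 1.78 and 43.1 ± 3.00 FPKM. In the other direction, Bcat2, the mitochondrial branched-chain aminotransferase, was at 11.98 ± 1.88 and 8.35 ± 1.28 FPKM, with fructose values all below the control values. Ch25h, which makes 25-hydroxycholesterol, was the 1 of 31 genes of cholesterol synthesis and oxysterols at an unadjusted p under 0.05, again a share near that of all loci. With both replicate 1 libraries left out, 1 gene of that list was higher and 1 lower (4.74% and 4.63% of all loci), with a median of 0.0027. Ch25h was at 9.76, 6.76, 12.8 and 9.31 FPKM in the controls and at 2.90, 0.673 and 3.72 FPKM after fructose, a log2 fold change of -1.74 ± 0.37 with no overlap.

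Genes of insulin, IGF and leptin signalling were balanced, with 13 of 26 positive and 12 without both replicate 1 libraries. At an unadjusted p under 0.05, 1 was higher and 4 lower (1.02% and 2.12% of all loci). Without those libraries these were 3 and 4 (4.74% and 4.63%). IGF ligand and binding proteins were among the lowest. Igf2, a growth factor made in adult brain mainly by meninges and choroid plexus, was at 112, 266, 241 and 384 FPKM in control and 56.5, 38.4 and 151 FPKM in fructose libraries. Control replicate 1 lay below fructose replicate 3, so the groups overlapped, with a log2 fold change of -1.72 ± 0.54 (SE). Igfbp2 had means of 183.7 ± 91.2 and 58.2 ± 47.9 FPKM, and Igfbp6 32.6 ± 7.80 and 11.8 ± 5.23 FPKM, the latter without overlap. Foxo1, the transcription factor that insulin signalling holds out of the nucleus, was at 7.53, 6.69, 8.003 and 5.65 FPKM and at 8.61, 13.6 and 9.92 FPKM, with all fructose values above the controls (log2 fold change 0.54 ± 0.18). The insulin receptor Insr was at 4.67 ± 0.678 and 4.94 ± 0.668 FPKM, with a log2 fold change of 0.07 that turned to -0.01 without fructose replicate 2. Lepr, the leptin receptor, was not analysed here.

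Genes that respond quickly to stimuli leaned to lower values. Of 37 immediate early genes, 25 had a negative log2 fold change and 8 were lower at an unadjusted p under 0.05 (2.12% of all loci), with 0 higher. The median was -0.12, and -0.08 without both replicate 1 libraries, where 6 were lower (4.63% of all loci). Klf2, a transcription factor of endothelial cells and lymphocytes that flow induces, was at 38.3, 30.5, 35.8 and 36.8 FPKM in control and 18.7, 25.3 and 23.2 FPKM in fructose libraries. Its groups did not overlap, with a log2 fold change of -0.64 ± 0.14, and the related Klf4 was at 12.4 ± 1.19 and 8.39 ± 1.20 FPKM in the same way. Ctgf, a matrix-associated growth regulator, was at 14.1 ± 4.40 and 6.56 ± 2.01 FPKM. Dusp1, a phosphatase that turns off MAP kinases, was at 24.7 ± 3.35 and 14.2 ± 5.70 FPKM, with fructose replicate 2 at 20.3 FPKM above control replicate 1 at 19.7 FPKM. Fructose replicate 1 lay lowest in the median over this list, at -0.33 relative to the control mean, with -0.06 and -0.15 for the others and -0.07 to 0.06 in the controls.

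Nfkbia, the inhibitor that holds NF-kappa-B in the cytosol and is itself induced by it, was at 37.3, 33.4, 33.7 and 36.8 FPKM in the controls and at 15.6, 20.5 and 22.0 FPKM after fructose. The controls lay within a narrow band and all fructose values were well below it, with a log2 fold change of -0.85 ± 0.14 (SE), or -0.68 without the replicate 1 libraries. Of 28 tested genes of NF-kappa-B signalling and inflammation, 22 were negative and 4 were lower at an unadjusted p under 0.05 (2.12% of all loci), with 0 higher. The median was -0.18, and -0.09 without both replicate 1 libraries, with 17 of 28 negative and 3 lower at that p (4.63% of all loci). With the replicate number as a block, 7 members had an unadjusted p under 0.05 (6.6% of all loci). The chemokine Ccl19 was at 13.6 ± 4.95 and 4.65 ± 1.69 FPKM. Ptges, which makes prostaglandin E2, was at 3.51 ± 0.577 and 1.93 ± 0.748 FPKM, and the interleukin 1 receptor Il1r1 at 2.98 ± 0.502 and 1.97 ± 0.395 FPKM.

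The promoter of Ccl19, with the second smallest p of the NF-kappa-B list, holds no match to the kappa-B motif described below. That of Nfkbia, with the smallest p of the list, is shown because it holds a match. The 250 bases before its start in RefSeq (GRCr8 chr6:78597073-78597322, minus strand) are given 5′ to 3′ on the strand of the gene. Capitals mark a match to the kappa-B motif, GGG and TTCC with any 3 bases between them, read here on the opposite strand, at bases 31 to 22 before the start:
Nfkbia: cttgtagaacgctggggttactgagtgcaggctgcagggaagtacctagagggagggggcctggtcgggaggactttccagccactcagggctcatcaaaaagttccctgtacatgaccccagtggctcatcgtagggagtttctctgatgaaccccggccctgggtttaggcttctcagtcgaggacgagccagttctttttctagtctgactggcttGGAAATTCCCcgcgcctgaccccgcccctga
A match on either strand occurs in 6 of 25 tested members of the list with a promoter in the RefSeq table (24.0%) and in 4.53% of all 27457 promoters. The 6 are Nfkbia, Il1r1, Nfkb2, Cxcl10, Lcn2 and Tlr2.

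Glucocorticoid-responsive genes, a list that also holds the receptors Nr3c1 and Nr3c2, showed a similar tilt. They share members with the groups above. Of 28 tested, 20 were negative (median -0.15, the same without both replicate 1 libraries), with 1 higher and 5 lower at an unadjusted p under 0.05 (1.02% and 2.12% of all loci), or 1 and 6 without those libraries (4.74% and 4.63%). Cdkn1c, a cell cycle inhibitor, was at 619, 483, 413 and 814 FPKM in control and 165, 85.9 and 208 FPKM in fructose libraries at the stronger of its 2 loci, with no overlap and a log2 fold change of -1.97 ± 0.34. Cebpd, a transcription factor of the acute phase response, was at 11.96 ± 2.33 and 7.10 ± 1.80 FPKM. Zbtb16, a zinc finger repressor chosen after its values were seen, went the other way, at 4.03 ± 1.23 and 6.57 ± 0.459 FPKM.

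Immune effector lists were lower in their medians. Complement genes had a median of -0.23 with 11 of 14 negative and 2 lower at an unadjusted p under 0.05 (2.12% of all loci). Without both replicate 1 libraries the median was -0.15, with 1 higher and 1 lower (4.74% and 4.63% of all loci). With the block 5 members had that p (6.6% of all loci). C1qa, a microglial subunit of C1q, was at 76.8 ± 6.17 and 57.8 ± 10.5 FPKM and the protease Cfd at 5.88 ± 1.10 and 3.41 ± 1.09 FPKM, both without overlap. Of 22 interferon-induced genes 19 were negative (median -0.20), but the median was -0.01 without both replicate 1 libraries. Ifit3, an antiviral protein, was at 3.29 FPKM in control replicate 1, at 0.892 to 1.18 FPKM in the other controls and at 0.291 to 0.793 FPKM in the fructose libraries, and the related Ifit2 at 2.01 ± 0.254 and 1.59 ± 0.0801 FPKM. The antigen presentation list had a median of -0.53 with 0 of 10 members at an unadjusted limma p under 0.05, and the median was -0.41 without both replicate 1 libraries (0 at that p) and -0.13 without fructose replicate 2. Cd74, the class II invariant chain, was at 126 to 137 FPKM in the controls and at 57.5, 24.2 and 184 FPKM in the fructose libraries, so the fructose values lay on both sides.

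Meningeal fibroblasts build the membranes that cover the brain, and their markers had the most negative median of the 41 lists. All 21 tested markers had a negative log2 fold change, 18 were lower at an unadjusted p under 0.05 (2.12% of all loci) and 9 did not overlap (1.58% of all loci in this direction). The median was -1.21, or -1.27 without both replicate 1 libraries, with 12 lower at that p (4.63% of all loci). Crabp2, a carrier of retinoic acid, was at 18.6, 12.8, 18.5 and 22.4 FPKM in control and 5.62, 1.87 and 8.62 FPKM in fructose libraries. Slc6a20, a proline transporter, was at 57.8, 45.9, 48.7 and 68.8 FPKM and then at 18.4, 5.85 and 26.97 FPKM. In both genes all fructose values were lower, and fructose replicate 2 was the lowest library. The transcription factor Tbx18 was at 2.40 ± 0.568 and 0.846 ± 0.510 FPKM, while Aldh1a2, which makes retinoic acid, overlapped at 27.3 ± 12.7 and 12.4 ± 10.5 FPKM.

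The summed FPKM of the meningeal markers was 6536, 6037, 9930 and 12740 in control replicates 1 to 4 and 2560, 495.1 and 5058 in fructose replicates 1 to 3. Every fructose library lay below every control library, and fructose replicate 2 was far below the rest. A sum follows the most abundant members, and the members named here had far lower values. The list also includes Ptgds, whose own values are not described. The list median relative to the control mean, which weighs members equally, was -0.45 to 0.37 in the controls. It was -1.04, -2.22 and -0.55 in fructose replicates 1 to 3. Without fructose replicate 2 the median of the list was -0.71, with 10 markers at an unadjusted p under 0.05. In that fit 146 of all 11498 tested loci had such a p. Several of the lower genes of the sections above, such as Igfbp6, Crabp2 and Lum, belong to this list, and S100a6, Igf2, Igfbp2 and Rbp4 had lower means beside it. S100a6, a calcium-binding protein, was at 18.8, 14.8, 28.2 and 23.7 FPKM in control and 8.69, 4.55 and 5.44 FPKM in fructose libraries (log2 fold change -1.63 ± 0.27). Rbp4, the retinol carrier, was at 184 ± 55.2 and 70.3 ± 38.3 FPKM, and Cyp26b1, which degrades retinoic acid, at 4.59 ± 1.90 and 1.94 ± 0.978 FPKM. The part of the meningeal content in these differences was not tested.

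Extracellular matrix genes were lower alongside. Of 41 tested, 39 had a negative log2 fold change, 10 were lower and 0 higher at an unadjusted p under 0.05 (2.12% of all loci lower), and 6 did not overlap (1.58%). The median was -0.46, or -0.60 without both replicate 1 libraries with 6 lower (4.63% of all loci), and it was -0.71 without fructose replicate 3. With the replicate number as a block, 21 members had an unadjusted p under 0.05 (6.6% of all loci) and the median was -0.37. Lum, a small leucine-rich proteoglycan that spaces collagen fibrils, was at 13.4, 11.4, 14.9 and 13.1 FPKM in the controls and 7.41, 3.43 and 8.05 FPKM after fructose, without overlap. Pcolce, which promotes collagen maturation, was at 24.9 ± 5.94 and 10.4 ± 6.46 FPKM, and Fbln1, a glycoprotein of elastic fibres and basement membranes, at 64.1 ± 14.3 and 34.1 ± 17.0 FPKM. The proteoglycans Bgn and Fmod overlapped between groups. Bgn was at 50.6, 51.3, 83.3 and 112 FPKM in control and 26.4, 18.03 and 60.8 FPKM in fructose libraries, and Fmod at 22.7 ± 6.37 and 13.3 ± 7.39 FPKM.

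The cells of vessel walls followed in smaller steps. Of 19 mural markers, 15 were negative (median -0.53, or -0.37 without both replicate 1 libraries) and 6 were lower at an unadjusted p under 0.05 (2.12% of all loci), 3 without those libraries (4.63%) and 10 in either direction with the block (6.6%). The smooth muscle genes Tagln and Des were at 188 ± 76.4 and 83.4 ± 50.01 FPKM and at 23.5 ± 9.81 and 9.84 ± 5.96 FPKM, both with overlap. Vtn, a plasma and pericyte adhesion protein, was at 81.5 ± 19.2 and 45.1 ± 10.6 FPKM, and Anpep, a peptidase of pericytes, at 3.61 ± 0.0827 and 2.17 ± 0.752 FPKM, both without overlap. Negative log2 fold changes were found for 16 of 20 endothelial markers, and the list median was -0.21, or -0.11 without both replicate 1 libraries and -0.08 without fructose replicate 1 alone. Klf2 and the adhesion molecule Icam2, with 2 loci in the table, did not overlap, and the receptor Kdr was at 5.64 ± 1.08 and 3.84 ± 0.515 FPKM. All 7 border macrophage markers were negative (median -0.60, or -0.55 without both replicate 1 libraries). At an unadjusted p under 0.05, 3 were lower (2.12% of all loci), or 2 without those libraries (4.63%). Among them was F13a1, a transglutaminase, at 3.86 ± 0.711 and 2.08 ± 0.682 FPKM. The lectin Clec10a was at 4.90 ± 1.40 and 2.25 ± 1.31 FPKM, and the adaptor Dab2 at 15.5 ± 3.54 and 10.04 ± 3.62 FPKM.

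**Figure D3:**
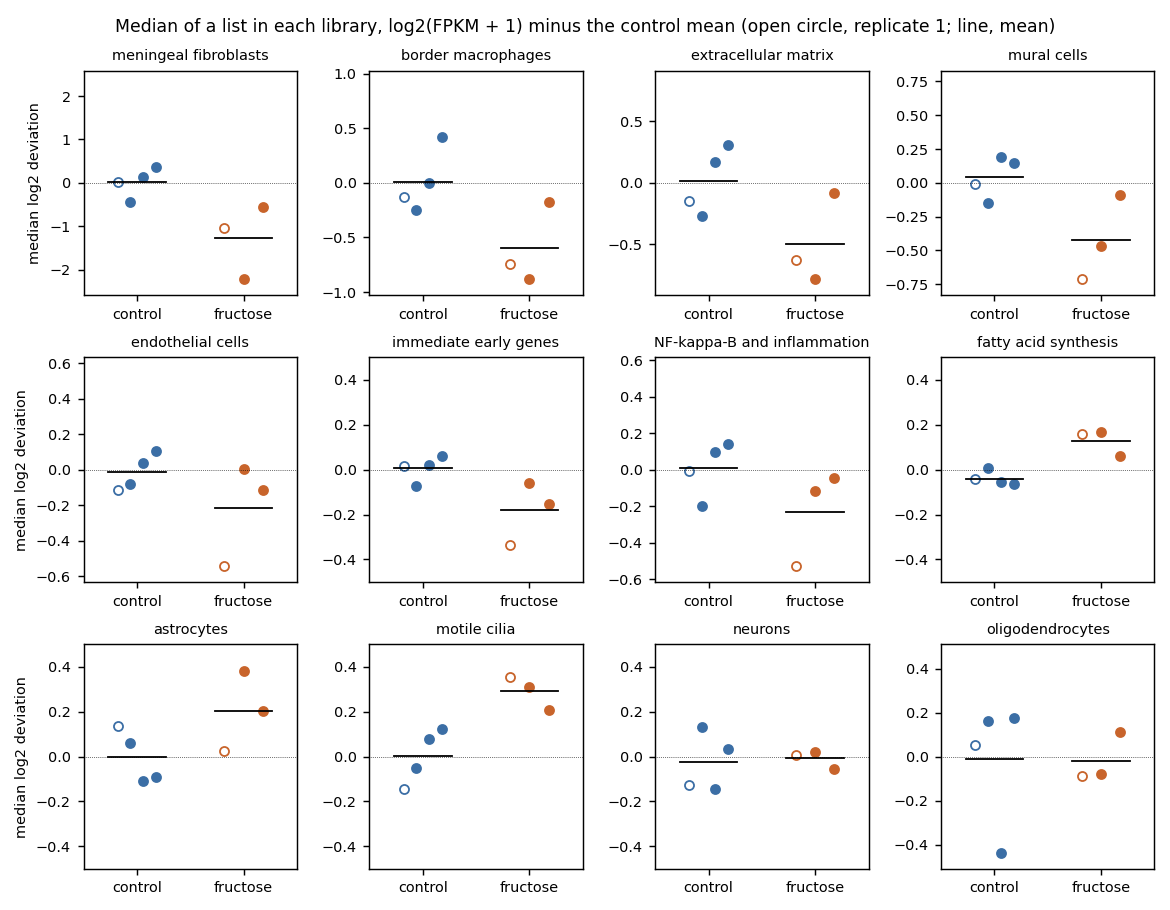
Median over the tested members of 12 gene lists in each library, as log2(FPKM + 1) minus the control mean of each gene; open circles are the replicate 1 libraries and lines the group means. The vertical scale differs between panels: meningeal markers span from 0.37 in control replicate 4 to -2.22 in fructose replicate 2, while neuron and oligodendrocyte markers show no separation of the groups.

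Astrocyte markers leaned to higher values, with 16 of 19 positive, a list that includes Slc39a12. The median was 0.16, and 0.27 without both replicate 1 libraries, where 7 were higher at an unadjusted p under 0.05 (4.74% of all loci) against 2 with all libraries (1.02%). Kcnj10, the potassium channel Kir4.1 of astrocytes, is not a member of the astrocyte list counted here. It was the 1 of 46 tested voltage-gated ion channels that was higher at an unadjusted p under 0.05 (1.02% of all loci), with 0 lower. At 1 of the 2 loci with this symbol, it was at 74.7, 60.5, 47.4 and 44.1 FPKM in control and 81.2, 96.9 and 85.4 FPKM in fructose libraries, without overlap. The bicarbonate cotransporter Slc4a4, also with 2 loci, was at 67.0 ± 9.19 and 91.2 ± 15.3 FPKM. Gjb6, the gap junction protein connexin 30, went the other way at 109 ± 15.9 and 82.2 ± 8.71 FPKM. The summed astrocyte markers were at 5243 to 6028 FPKM in the controls and at 5067 to 7262 FPKM in the fructose libraries. Whether astrocyte content has a part in the difference in Slc39a12 was not tested.

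For the other cells of nervous tissue few markers had an unadjusted p under 0.05 with all libraries. Neuron markers had a median of 0.01 with 12 of 22 positive (-0.04 and 9 without both replicate 1 libraries) and summed FPKM of 5455 to 6775 in control and 6089 to 6440 in fructose libraries. Oligodendrocyte markers had a median of -0.02 with 0 of 17 at an unadjusted limma p under 0.05, and 0.07, again with 0, without both replicate 1 libraries. The median of 17 microglial markers was 0.01 with 1 higher and 1 lower at that p (1.02% and 2.12% of all loci). It was 0.15 without both replicate 1 libraries, with 4 higher and 0 lower (4.74% and 4.63% of all loci). Olfml3 was lower, at 15.1 ± 4.22 and 9.29 ± 1.78 FPKM, and Sall1, with 2 loci, higher, at 5.44 ± 0.399 and 8.32 ± 2.35 FPKM. The 15 tanycyte markers had a median of 0.11, or 0.07 without those libraries, with 1 lower at that p in both (2.12% and 4.63% of all loci). It was Ptn, a secreted growth factor, at 102 ± 6.35 and 80.8 ± 7.57 FPKM without overlap. The tanycyte transcription factor Rax was at 4.00, 2.43, 10.2 and 7.12 FPKM in control and 7.28, 12.9 and 9.15 FPKM in fructose libraries, which overlapped.

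Feeding circuits showed no locus at an unadjusted limma p under 0.05 among the 20 tested peptides and receptors (0 by adjusted p), although 14 had a positive log2 fold change and the median was 0.20. With both replicate 1 libraries left out, 14 were positive, the median was 0.16, and 2 were higher and 2 lower at that p (4.74% and 4.63% of all loci). With a term for replicate 1 there were 2 higher and 1 lower (3.43% and 4.28%). Pmch was among the lower and Mc3r among the higher members in both fits. Agrp, the hunger peptide of the arcuate nucleus, was at 25.2, 9.94, 28.6 and 12.2 FPKM in control and 28.9, 20.7 and 13.4 FPKM in fructose libraries. Pomc, the precursor of the satiety peptide alpha-MSH in the same nucleus, was at 179, 57.3, 220 and 163 FPKM and at 237, 164 and 195 FPKM. The groups overlapped for both genes, and control replicate 2 was the lowest library in each. Cartpt was at 446 ± 141 and 520 ± 31.7 FPKM, and the melanocortin receptors Mc4r at 2.85 ± 0.513 and 2.77 ± 0.771 FPKM and Mc3r, with 2 loci, at 6.40 ± 1.26 and 8.99 ± 3.07 FPKM. The log2 fold change of Mc3r was 0.40, or 0.55 without both replicate 1 libraries. The receptor Npy5r was at 2.35 ± 0.348 and 2.94 ± 0.528 FPKM. Npy was listed at 0 at both of its loci in all libraries but fructose replicate 1, at 0.0928 FPKM, so these loci do not carry a usable value for this peptide.

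The lateral hypothalamic peptides had lower means in fructose samples. Pmch, the precursor of melanin-concentrating hormone, was at 2001, 1093, 974 and 919 FPKM in control and 1175, 559 and 725 FPKM in fructose libraries, and the groups overlapped through fructose replicate 1. Fructose lay below control within each same-numbered pair, as for 1393 of the 11498 tested loci. The log2 fold change of Pmch was -0.60 ± 0.34 (SE), and -0.64 without both replicate 1 libraries. There the groups did not overlap, as for 1464 loci in this direction. It was -0.68 with a term for replicate 1, -0.72 with the block and -0.35 without control replicate 1 alone. Hcrt, the precursor of the orexins, was at 825 ± 268 and 583 ± 149 FPKM, with a log2 fold change of -0.46 ± 0.32.

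Neuroendocrine peptides were evenly divided, with 13 of 26 positive and 0 at an unadjusted limma p under 0.05. Without both replicate 1 libraries 13 were again positive, with 1 higher, Kiss1, and 1 lower at that p (4.74% and 4.63% of all loci). Crh, which drives the stress axis, was at 8.07, 6.50, 8.20 and 8.21 FPKM in control and 6.58, 6.59 and 5.33 FPKM in fructose libraries, which overlapped only through control replicate 2 (log2 fold change -0.29 ± 0.14, SE). Ghrh, which releases growth hormone, was at 26.1 ± 18.7 and 43.5 ± 8.86 FPKM, and its inhibitor Sst at 392 ± 38.8 and 459 ± 47.4 FPKM. Kiss1, which drives the reproductive axis, was at 4.08 ± 1.15 and 8.31 ± 5.74 FPKM, the latter set by fructose replicate 2 at 14.5 FPKM. Oxt was at 1780 ± 769 and 1208 ± 310 FPKM, Avp at 2586 ± 1056 and 2395 ± 1292 FPKM and Trh at 93.5 ± 11.2 and 86.8 ± 23.4 FPKM. Bdnf, a neurotrophin that restrains feeding, was at 5.31 ± 1.31 and 5.50 ± 1.85 FPKM. The log2 fold changes of Avp, Trh and Bdnf were -0.17, -0.14 and 0.03 and changed sign between settings.

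**Figure D4:**
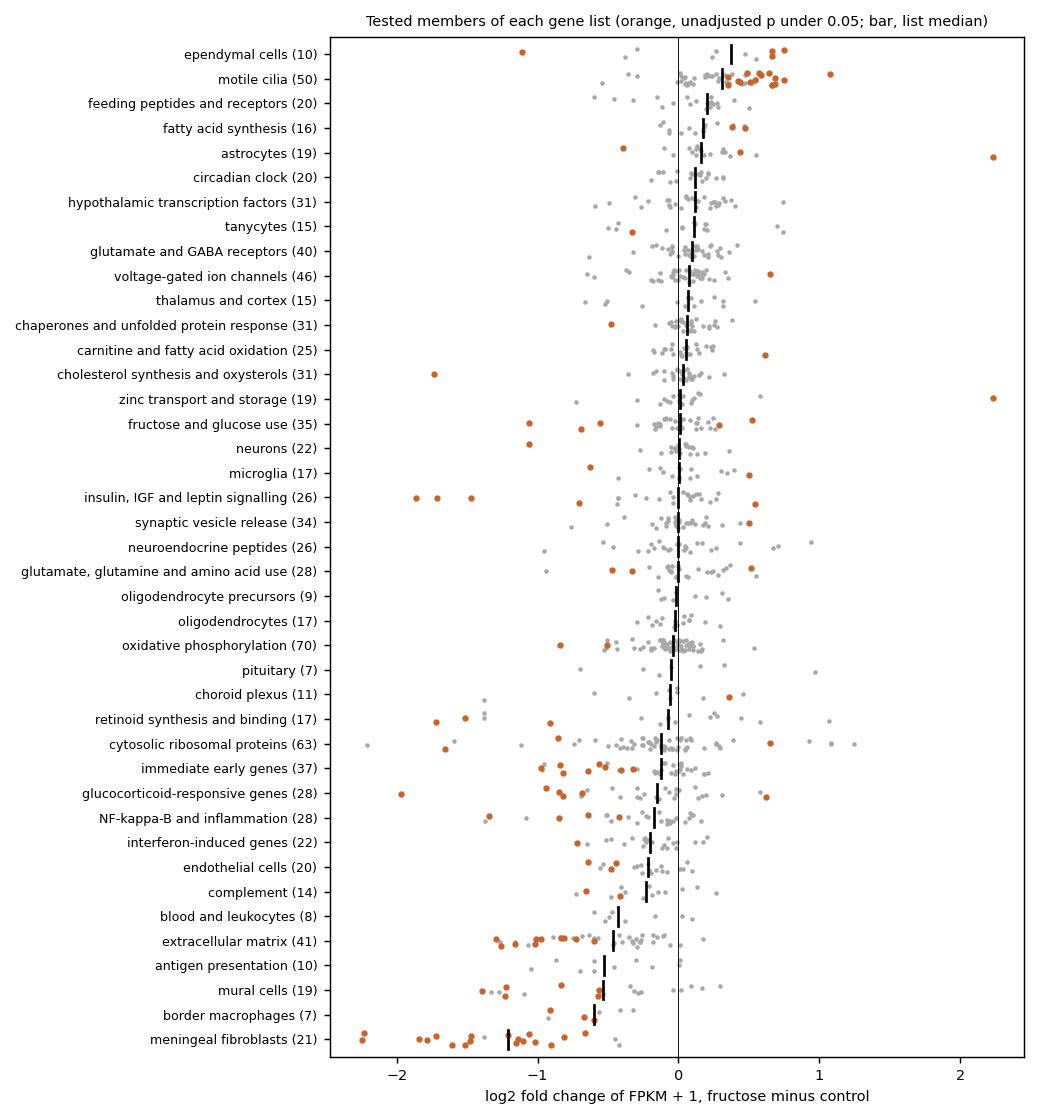
Log2 fold change of FPKM + 1 (fructose minus control) of the tested members of the 41 gene lists, ordered by the list median (black bar); the number of tested members is in parentheses and orange points have an unadjusted limma p under 0.05. Motile cilia lie near the top with a median of 0.31, meningeal fibroblasts at the foot with -1.21, and most lists centre near 0.

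Among general cell functions, oxidative phosphorylation and ribosomal protein genes leaned to lower values, more so without the replicate 1 libraries. Of 70 oxidative phosphorylation genes, 43 were negative with a median of -0.04 and 2 lower at an unadjusted p under 0.05 (2.12% of all loci). With both replicate 1 libraries left out, 59 were negative and the median was -0.16, beside -0.01 for all loci, with 6 lower and 0 higher at that p (4.63% and 4.74% of all loci). Ndufab1, a complex I subunit and acyl carrier protein, was at 432 ± 91.7 and 298 ± 17.9 FPKM, and the cytochrome oxidase subunit Cox6a2 at 34.3 ± 10.99 and 18.8 ± 7.46 FPKM. Negative values were found for 43 of 63 ribosomal protein genes, the median being -0.12. At an unadjusted p under 0.05, 1 was higher and 2 lower (1.02% and 2.12% of all loci), and 13 in either direction with the block (6.6%). Without both replicate 1 libraries 49 were negative and the median was -0.19, with 2 higher and 12 lower (4.74% and 4.63% of all loci). Rps28 was at 1.93 ± 0.770 and 0.578 ± 0.0619 FPKM and Rpl30 at 8.32 ± 5.16 and 1.58 ± 0.608 FPKM, while Rps25, with 2 loci, was at 8.69 ± 1.19 and 14.8 ± 5.89 FPKM. Values this low for ribosomal genes are uncertain, since reads can be shared with their many gene copies. Circadian clock genes had a median of 0.12 with 13 of 20 positive and 0 at an unadjusted limma p under 0.05. With both replicate 1 libraries left out, the median was 0.16 with 14 positive, and 5 were higher and 0 lower at that p (4.74% and 4.63% of all loci). Cry1, a repressor of the clock and 1 of these 5, was at 9.77, 7.44, 7.38 and 7.18 FPKM in control and 9.04, 9.63 and 9.12 FPKM in fructose libraries. Its groups overlapped through control replicate 1. Of the glutamate and GABA receptors, 28 of 40 were positive with 0 at that p. Without both replicate 1 libraries 27 were positive, with 2 higher and 0 lower at that p (4.74% and 4.63% of all loci). Of 31 chaperone genes the small heat shock protein Hspb1 alone had such a p, being lower (2.12% of all loci), at 54.9 ± 10.01 and 39.5 ± 10.2 FPKM. Without those libraries 1 chaperone gene was higher and 0 lower (4.74% and 4.63% of all loci).

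Genes outside these lists also had values that did not overlap. Crkl, an adaptor of growth factor signalling, had means of 3.49 ± 0.370 FPKM (control) and 5.59 ± 1.08 FPKM (fructose). Prc1, which bundles microtubules in cell division, was at 0.911 ± 0.104 and 1.58 ± 0.181 FPKM, and Slc35e2b, a member of the nucleotide sugar transporter family, at 2.58 ± 0.273 and 3.72 ± 0.186 FPKM. Lower after fructose were Sult6b1, a sulfotransferase (1.84 ± 0.350 and 0.557 ± 0.402 FPKM), Sytl1, a vesicle trafficking protein (2.22 ± 0.613 and 0.836 ± 0.358 FPKM), and the matrix protein Adamtsl5 (1.82 ± 0.344 and 0.784 ± 0.350 FPKM). On the log2 scale these 6 differences ranged from -0.89 to 0.54. The control mean of Prc1 and the fructose means of Sult6b1, Sytl1 and Adamtsl5 lay under the filter of 1 FPKM. These genes were therefore tested only through their higher group, as were Rps28, Tbx18 and Ifit3 above.

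Loci that passed the adjusted test only in another fit had values that came and went between libraries. Rnpep, an aminopeptidase, was at 0, 0, 1.14 and 31.9 FPKM in control and 31.2, 50.8 and 53.8 FPKM in fructose libraries at 1 of its 2 loci. With the replicate number as a block, which leaves out control replicate 4, its limma adjusted p was 0.00252 at a log2 fold change of 5.13. LOC685322 was at 53.8, 44.9, 1706 and 54.8 FPKM and at 1039, 1789 and 988 FPKM, and its limma adjusted p was 0.0102 without control replicate 3. Fbxw11, a ubiquitin ligase subunit, was listed at 0 in control replicate 1 and all fructose libraries at 1 of its 2 loci and at 3.89, 3.44 and 5.04 FPKM in the other controls. Its limma adjusted p was 0.0467 without both replicate 1 libraries. In each of these loci a library of 1 group had a value like those of the other group.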

How the data were processed

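Poly-A RNA libraries were sequenced on a HiSeq 2000 and demultiplexed with CASAVA 1.8.2, per the labels' protocols. The authors deposited FPKM per locus; the submitters' processing notes name TopHat, Bowtie, TopHat2, Bowtie2, Cufflinks, Cuffdiff and the build rn5, without versions or settings. The tables used here hold no counts, and steps in the lowest FPKM values did not give whole reads, so no count model was fitted and depth is unknown. Values were taken as log2(FPKM + 1), and 11498 loci with a mean of at least 1 FPKM were tested with limma 3.58.1 in R 4.3.3 (moderated test with trend, group only, two-sided, Benjamini-Hochberg adjustment over all tested loci). The 28 tested loci with a status other than OK were kept. The procedure was tested on simulated data. Groups follow the labels.

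The members, the 41 gene lists and the tests were chosen with earlier results of these data known. Lists are described by counts and medians, with a gene of several loci taken at its strongest; of 1224 listed symbols, 1090 were found by symbol and 6 by synonym. Named genes are Slc39a12, the 15 per direction with the smallest p among non-overlapping loci with 1 locus per symbol, the 8 per direction with the largest change at p under 0.01, up to 4 members per list with the smallest p, loci passing with a replicate 1 term or without replicate 1, and a fixed set (Agrp, Npy, Pomc, Cartpt, Hcrt, Pmch, Mc4r, Lepr, Insr, Oxt, Avp, Crh, Trh, Khk, Slc2a5, Bgn, Fmod, Bdnf, Nfkbia, Foxj1, Mt1a, Mt2A). Not all of them are described.

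Replicate numbers come from the labels. Deviations of same-numbered control and fructose libraries from their group means had correlations of 0.85, 0.49 and 0.46 for replicates 1 to 3, all over 0.1. Without both replicate 1 libraries the values were 0.27 and 0.04 for replicates 2 and 3. The labels do not state what a replicate number stands for, so a pairing of the samples is not established. An alternative fit took the replicate number as a block. Other alternatives varied the pseudocount, the filter, the scaling, library weights, the prior variance, the status flag, symbols with several loci and the libraries used. Promoters are from RefSeq (GRCr8), and figures were drawn with matplotlib 3.10.9.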

Additional observations from a re-analysis of the deposited data

Results flagged for a closer look

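In the 4 control libraries, 16 of 121 loci examined had a highest or lowest value whose gap to the next, as a share of the whole range, was above the 95% critical value of Dixon's test, which chance gives for about 1 group in 20. With control replicate 1 apart, Dusp1 was at 19.7 FPKM (the others at 26.1 to 26.7), Tmem212 at 5.74 (10.7 to 11.3), Ifit3 at 3.29 (0.892 to 1.18), Pmch at 2001 (919 to 1093), the synapsin Syn3 at 4.51 (2.28 to 2.63) and the clock repressor Cry1 at 9.77 (7.18 to 7.44). With control replicate 2 apart, Tbx18 was at 1.55 FPKM (2.59 to 2.79), Slc38a1 at 38.9 (35.1 to 35.5) and Crh at 6.50 (8.07 to 8.21). Control replicate 3 stood apart for Spag6 at 6.59 FPKM (4.48 to 4.73), Kl, the ageing-related co-receptor of FGF23, at 1.81 (1.17 to 1.28) and LOC685322 at 1706 (44.9 to 54.8). Control replicate 4 stood apart for Pcolce at 33.8 FPKM (21.5 to 22.4), Icam2 at 6.08 (6.70 to 6.75), Ttr at 79.1 (10.7 to 13.6) and Rnpep at 31.9 (0 to 1.14).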

How the results depend on the processing

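Depth is unknown, 1 group has 3 libraries, and Slc39a12 lies near the filter on low values, so these limit what can be called. With the replicate number as a block, 2 loci passed the adjusted p in place of 1 and 759 had an unadjusted p under 0.05; 3029 loci had differences of 1 sign in all 3 pairs, and the block changed no other adjusted call. Of all loci 6.6% had an unadjusted p under 0.05 with the block. Members at that p numbered 2 in each of the feeding, neuroendocrine, glutamate and GABA receptor, zinc, chaperone and antigen presentation lists, 5 among hypothalamic transcription factors and 1 in fatty acid synthesis. The count at an unadjusted p under 0.05 was 886 with a replicate 1 term, 1077 without both replicate 1 libraries (2 adjusted, 3169 without overlap), 548 with no filter on low values, 205 at a mean of at least 5 FPKM (0 adjusted, 240 without overlap, Slc39a12 not being tested there) and 2099 with library weights. Leaving out 1 library at a time gave 0 to 2 loci by adjusted p, 146 (without fructose replicate 2) to 677 (without fructose replicate 1) by unadjusted p and 522 to 2152 without overlap, fewer libraries making overlap rarer. Slc39a12 kept a log2 fold change of 2.19 to 2.99 in the 19 alternatives it entered. The sign turned for Mt1a with library weights (-0.53), Mc4r with quantile normalization (0.0025), Avp with the block (0.038), Bdnf with the block (-0.083), the replicate 1 term (-0.011), library weights (-0.059) and without both replicate 1 libraries (-0.097), and Tshb without these (-0.80) and with library weights (-1.88). Leaving out 1 library at a time also spanned 0 for Agrp (-0.049 to 0.48), Mc4r (-0.16 to 0.13), Insr (-0.014 to 0.15), Avp (-0.57 to 0.27), Trh (-0.28 to 0.11), Bdnf (-0.19 to 0.18), Tshb (-0.56 to 2.81) and Cga (-1.66 to 0.79). Of 820 list medians under alternatives, 805 moved by less than the SD between libraries and 15 by more. The cause of these differences was not tested.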

Other observations

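Markers of choroid plexus, the epithelium in the ventricles that makes cerebrospinal fluid, differed in direction from gene to gene. Ttr, the thyroxine carrier that is the most abundant transcript of choroid plexus, was at 13.6, 12.3, 10.7 and 79.1 FPKM in control and 7.59, 4.24 and 9.98 FPKM in fructose libraries. All fructose values were lower, and control replicate 4 set most of the difference in means. Folr1, a folate receptor of the same epithelium, was at 4.63 ± 1.46 FPKM (SD, n = 4) and 6.62 ± 1.09 FPKM (n = 3), in the other direction. Of 11 tested markers, 3 had a positive log2 fold change, and the median was -0.06, or 0.01 with 6 positive without both replicate 1 libraries.

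Transcripts of pituitary hormones varied widely between libraries. Cga, the common alpha subunit of the glycoprotein hormones, was at 327, 51.8, 762 and 383 FPKM in control and 623, 19.9 and 338 FPKM in fructose libraries. Tshb, the beta subunit of thyrotropin, was at 6.64, 1.15, 53.8 and 28.1 FPKM and at 206, 0.946 and 37.4 FPKM. Both were lowest in the replicate 2 libraries of both groups, and neither followed the groups. Among 31 hypothalamic transcription factors 21 had a positive log2 fold change (median 0.12), with 0 at an unadjusted limma p under 0.05. Without both replicate 1 libraries the median was 0.20, with 1 higher and 2 lower at that p (4.74% and 4.63% of all loci). Isl1, of the arcuate nucleus, was at 10.7 ± 1.81 and 13.2 ± 2.12 FPKM, and Zic2 at 21.9 ± 6.84 and 14.1 ± 4.22 FPKM.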
